A study of Mus musculus with 2 samples.

Results

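The core circadian clock genes are the 10 genes Arntl, Clock, Per1, Per2, Per3, Cry1, Cry2, Nr1d1, Nr1d2 and Dbp, taken by symbol from the 19837 genes of the deposited single-cell expression table. All 10 were present. The rule uses their names and no measured value, but the genes were chosen with earlier results of these data known. Arntl and Clock form the activator arm, Per1, Per2, Per3, Cry1, Cry2, Nr1d1 and Nr1d2 the repressor arm, and Dbp stands for the clock's output.

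The proteins of Arntl (BMAL1) and Clock pair on E-box elements in DNA and switch on the Per, Cry, Nr1d1, Nr1d2 and Dbp genes. PER and CRY proteins return to the nucleus and block the CLOCK and BMAL1 pair, while the REV-ERB proteins of Nr1d1 and Nr1d2 repress Arntl by competing with ROR activators for the same DNA element. The loop runs with a period of about a day in nearly every tissue, T cells included, so the level of a clock transcript depends on the hour at which the cells were taken.

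Splenic T cells from female mice of strain C57/BL6N were profiled as 3 pools, and each pool joined the cells of 3 mice under 1 sample tag. The pools came from mice that received saline and are labelled 0 h, from mice taken 4 h after 6 mg/kg remimazolam, and from mice taken 8 h after it. Remimazolam is a short-acting benzodiazepine that the series title calls a GABA(A) receptor agonist. All pools went through the same BD Rhapsody capture, a microwell method in which each transcript molecule is counted once. The age of the mice and the hour of harvest are not given in the sources used here, and no saline pool at 4 h or 8 h is analysed here. Drug, time since injection and time of day therefore cannot be told apart. With 1 pool per treatment there is no replicate and no test between treatments, and the mice of a pool cannot be separated.

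T cells were gated on molecules of their own lineage genes. Of 16123 kept cells, 15159 (94.0%) were T cells, with 4980 in the saline pool, 5090 at 4 h and 5089 at 8 h. The labels describe the sort as CD45+CD3+CD5+ in one place and as CD45+ in another, and all 6 T cell markers, Cd5 among them, were detected in every pool. Depth was nearly equal, with 13650705, 13924435 and 13916890 molecules and medians of 2547, 2528 and 2530 molecules per cell. Levels are given as CPM, the molecules of a gene scaled to 1000000 molecules of the same cells; in the pools 3 molecules correspond to 0.220, 0.215 and 0.216 CPM. They are not scaled to transcript length, so each gene is compared only with itself. B cell markers summed to 325 to 331 CPM in the gated cells (5 of 5 detected) and myeloid markers to 81.5 to 88.0 CPM (all 3 detected in the saline and 4 h pools, with Csf1r at 0 at 8 h).

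All 10 are protein-coding genes in the RefSeq annotation of GRCm38.p6. Arntl lies at chr7:113178471-113314126 and Clock at chr5:76209868-76305603. Of the repressors, Per1 lies at chr11:69095108-69109965, Per2 at chr1:91415977-91459351 and Per3 at chr4:150997018-151044707. Cry1 lies at chr10:85131700-85185054 and Cry2 at chr2:92403646-92434085. Nr1d1 lies at chr11:98767932-98775377 and Nr1d2 at chr14:18204056-18239106. Dbp, at chr7:45705100-45710203, shares its chromosome with Arntl. The counted molecules are of whole genes, with no exon or isoform given.

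Clock proteins act through short DNA elements in promoters, and some of these elements can be read in the members' own promoter sequences. RefSeq windows on GRCm38.p6, from 250 bases before to 50 bases after a transcript start, were available as 13 windows of 9 of the 10 members, all but Per2. Both strands were searched for the E-box CACGTG, the ROR and REV-ERB core AGGTCA, the D-boxes TTATGTAA and TTACGTAA bound by DBP, the cAMP response element TGACGTCA and the glucocorticoid response element. The windows with an E-box, those of Per1 and Cry1, are shown with the D-box window of Per3 and the AGGTCA window of Nr1d2, since they hold the loop's own elements. Capitals mark the matches, on either strand. The Per1 window lies at chr11:69098699-69098998 on the plus strand. The Cry1 window lies at chr10:85185005-85185304, the Per3 window at chr4:151044616-151044915 and the Nr1d2 window at chr14:18239057-18239356, all on the minus strand.
Per1: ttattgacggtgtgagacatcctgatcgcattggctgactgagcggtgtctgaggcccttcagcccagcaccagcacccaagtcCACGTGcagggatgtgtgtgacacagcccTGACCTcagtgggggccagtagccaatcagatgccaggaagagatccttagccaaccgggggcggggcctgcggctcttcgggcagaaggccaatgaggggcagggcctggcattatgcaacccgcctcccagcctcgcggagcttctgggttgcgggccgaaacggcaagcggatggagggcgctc
Cry1: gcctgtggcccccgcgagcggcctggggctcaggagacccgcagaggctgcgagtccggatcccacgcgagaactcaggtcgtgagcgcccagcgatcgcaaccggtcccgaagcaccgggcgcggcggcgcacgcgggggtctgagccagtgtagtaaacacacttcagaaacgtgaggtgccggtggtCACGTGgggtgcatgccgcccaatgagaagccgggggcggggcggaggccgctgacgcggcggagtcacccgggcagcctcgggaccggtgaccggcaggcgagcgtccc
Per3: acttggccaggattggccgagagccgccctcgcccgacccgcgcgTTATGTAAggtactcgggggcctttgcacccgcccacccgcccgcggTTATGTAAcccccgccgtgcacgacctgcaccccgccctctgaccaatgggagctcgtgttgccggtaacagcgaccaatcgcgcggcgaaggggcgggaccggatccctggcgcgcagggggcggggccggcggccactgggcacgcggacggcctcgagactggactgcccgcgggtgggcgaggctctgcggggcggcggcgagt
Nr1d2: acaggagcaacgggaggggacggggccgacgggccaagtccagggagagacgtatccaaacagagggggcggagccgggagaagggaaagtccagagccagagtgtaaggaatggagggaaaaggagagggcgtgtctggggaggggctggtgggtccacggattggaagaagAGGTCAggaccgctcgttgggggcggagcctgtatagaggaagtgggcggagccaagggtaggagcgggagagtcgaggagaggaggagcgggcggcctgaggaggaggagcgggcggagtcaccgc

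The E-box of Per1 began 166 bases before the start and that of Cry1 60 bases before it. Per3 held TTATGTAA at 2 places. AGGTCA or its reverse complement, bound as a core by both receptor groups, was also found in an Arntl window, in a Clock window and beside the E-box of Per1. The windows of Cry2, Nr1d1 and Dbp held none of the searched motifs, which says only that these letters are not in these 300 bases. Of all 32851 windows of the reference, 7.15% held the E-box, 16.3% AGGTCA, 1.06% a D-box, 1.79% the cAMP response element and 0.00913% the glucocorticoid response element. The last 2 were found in no member window. A match describes the letters and is not a measured binding site.

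Clock transcripts were sparse in these cells. The 10 genes together gave 6042 of 41492030 T cell molecules, or 0.0146%. With every cell thinned to 1500 molecules, 19.0% of saline, 19.5% of 4 h and 19.3% of 8 h T cells held a molecule of at least 1 member (exact 95% binomial intervals 17.9 to 20.1%, 18.4 to 20.6% and 18.2 to 20.4%). Without thinning, the shares were 30.5%, 30.6% and 29.9%. Thinning left out 230, 238 and 256 shallower cells. Clock genes are active in nearly every cell type, so no cell type of the capture could serve as a blank for free RNA.

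Across all T cells the clock genes with enough molecules differed between the 3 pools by less than a set size. Of the 9 members with at least 100 molecules in the pools compared, 0 were higher by 25% or more, or lower by 20% or more, in 4 h over saline, 8 h over saline or 8 h over 4 h. Among all genes with that many molecules, 5.95%, 5.40% and 5.07% differed by this size in these comparisons. With 9 members, a count of 0 is near these shares and is not particular to the clock genes. A gene that differs by this size is said below to pass the fold. The median log2 ratio of the 9 members was −0.00 for 4 h over saline and −0.02 for 8 h over saline, beside 0.01 and −0.00 over all genes. Both comparisons share the saline pool, and fewer molecules per cell or fewer cells with the transcript cannot be told apart in such sums. Ratios below carry exact conditional binomial 95% intervals, which cover counting error only. Against saline, the intervals of Arntl, Per2, Per3, Cry2, Nr1d1 and Dbp reach past the fold. For them these counts do not settle whether the pools differ by that size.

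In the activator arm, Arntl stood at 17.7 CPM in the saline pool, 18.7 at 4 h and 17.5 at 8 h. Its ratio to saline was 1.06 (0.884 to 1.26) for the 4 h pool and 0.985 (0.821 to 1.18) for the 8 h pool. Clock, which encodes the partner of BMAL1, stood at 19.3, 18.5 and 18.5 CPM, with ratios of 0.954 (0.801 to 1.14) and 0.955 (0.801 to 1.14). For both genes the counting intervals of the 3 pools overlapped.

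Among the period genes, Per1, an early light- and hormone-responsive clock gene, stood at 15.9 CPM in the saline pool, 15.9 at 4 h and 16.1 at 8 h. The ratio of Per1 to saline was 0.998 (0.824 to 1.21) for the 4 h pool and 1.01 (0.836 to 1.23) for the 8 h pool. Per2, whose protein is limiting for the repressor complex, gave 55, 56 and 55 molecules in the saline, 4 h and 8 h pools. Those counts are nearly identical, but the intervals of its ratios, 0.676 to 1.48 at 4 h and 0.663 to 1.45 at 8 h, are wide. Per3 gave 15, 23 and 27 molecules, too few for the minimum, with ratios to saline of 1.503 (0.751 to 3.10) and 1.77 (0.906 to 3.57). The higher counts of Per3 in both remimazolam pools lay within counting error.

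The cryptochrome genes encode the proteins that hold CLOCK and BMAL1 inactive. Cry1 stood at 27.7 CPM in the saline pool, 29.4 at 4 h and 26.9 at 8 h, with ratios to saline of 1.06 (0.920 to 1.22) and 0.970 (0.839 to 1.12). Cry2 stood at 12.1, 11.3 and 9.99 CPM in the saline, 4 h and 8 h pools. Its ratio to saline was 0.933 (0.745 to 1.17) for the 4 h pool and 0.826 (0.655 to 1.04) for the 8 h pool, the lowest of any member, with an interval that still held 1.

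Nr1d1 and Nr1d2 encode the nuclear receptors REV-ERB alpha and beta. Nr1d1 gave 56, 70 and 63 molecules in the saline, 4 h and 8 h pools, or 4.10, 5.03 and 4.53 CPM. For Nr1d1 the ratio to saline was 1.23 (0.850 to 1.77) for the 4 h pool and 1.103 (0.758 to 1.61) for the 8 h pool. Nr1d1 passed the fold for 4 h over saline under 4 alternatives, with a ratio of up to 1.35 when every cell was weighted equally. Nr1d2 stood at 24.7, 24.3 and 25.1 CPM, with ratios of 0.983 (0.843 to 1.15) and 1.02 (0.875 to 1.19).

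Dbp, a transcription factor gene of the D-box that in many tissues is among the strongest cycling outputs of the clock, stood at 17.6 CPM in the saline pool, 19.0 at 4 h and 20.5 at 8 h. Dbp had a ratio to saline of 1.08 (0.902 to 1.29) for the 4 h pool and 1.16 (0.978 to 1.39) for the 8 h pool. The 8 h pool was highest and the saline pool lowest, and the interval of their ratio held 1.

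**Figure D1:**
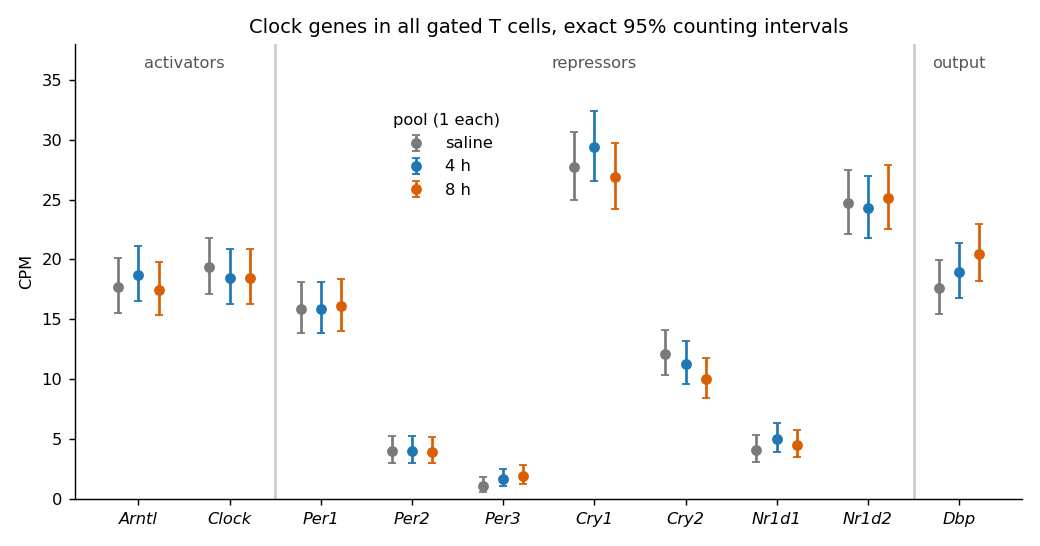
Level in CPM of each clock gene in all gated T cells (vertical axis) for the saline, 4 h and 8 h pools. Points are 1 pool of 3 mice each and bars are exact 95% Poisson intervals. The 3 intervals of each gene overlap; Cry1 spans 26.9 to 29.4 CPM over the pools, and Dbp 17.6 to 20.5 CPM.

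**Figure D2:**
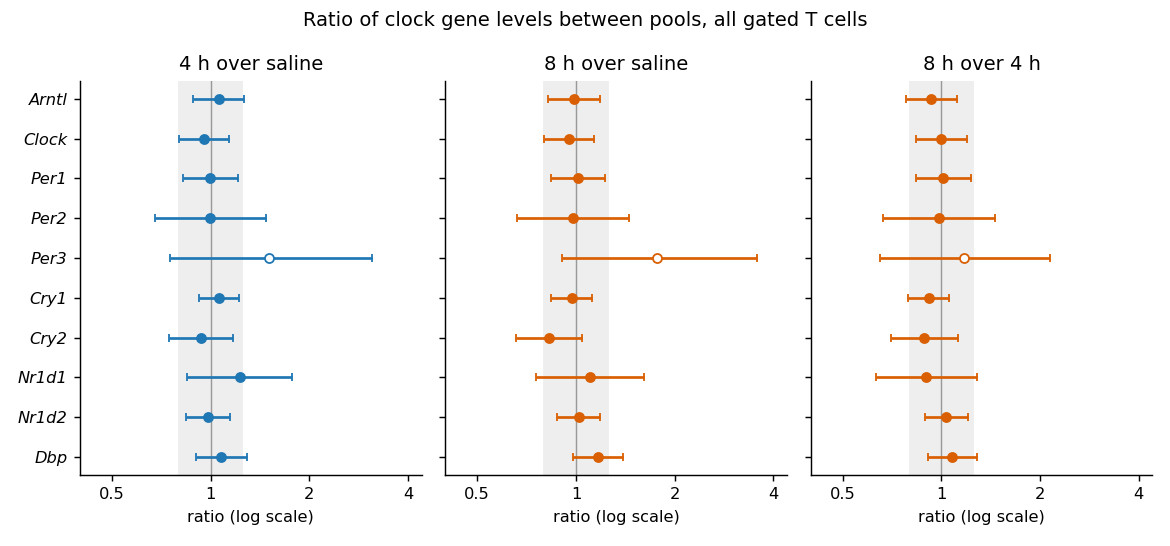
Ratio of each clock gene between pools in all gated T cells, on a log axis, for 4 h over saline, 8 h over saline and 8 h over 4 h. Bars are exact 95% counting intervals, the grey band spans 20% lower to 25% higher, and open points mark Per3, which is under 100 molecules. Filled points of all 9 other genes lie inside the band, and all bars cross 1.

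The activator and repressor arms stood in nearly the same proportion in the 3 pools. Arntl and Clock gave 506, 518 and 500 molecules in the saline, 4 h and 8 h pools, and the 7 repressor genes gave 1223, 1274 and 1232. The quotient of the arms was 0.414 (0.372 to 0.459), 0.407 (0.366 to 0.451) and 0.406 (0.365 to 0.451). This quotient is taken within a pool and does not depend on its depth. Relative to saline it was 0.983 (0.847 to 1.14) for the 4 h pool and 0.981 (0.845 to 1.14) for the 8 h pool.

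In Foxp3+ cells, gated on the transcription factor gene of regulatory T cells, it was 0.448 (0.271 to 0.724) in the saline pool, 0.450 (0.275 to 0.720) for the 4 h pool and 0.231 (0.130 to 0.389) for the 8 h pool, from 26, 27 and 18 activator molecules and 58, 60 and 78 repressor molecules. Relative to saline the 8 h value was 0.515 (0.242 to 1.08). In these cells Arntl gave 17, 16 and 6 molecules in the saline, 4 h and 8 h pools. Its ratio of 8 h to saline was 0.296 (0.0955 to 0.787). Clock, the other activator gene, did not fall there, with 9, 11 and 12 molecules in the saline, 4 h and 8 h pools. The lower activator count of Foxp3+ cells at 8 h thus came from Arntl and not from Clock. In CD8 cells the quotient was 0.454, 0.386 and 0.456, and in CD4 Foxp3- cells 0.385, 0.415 and 0.390, with overlapping intervals in both. Among CD8 cells without a molecule of Ccl5, a chemokine gene of memory and effector cells, it was 0.364 at 4 h and 0.470 in the saline pool, a ratio of 0.775 (0.603 to 0.997). The interval of that ratio left out 1.

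**Figure D3:**
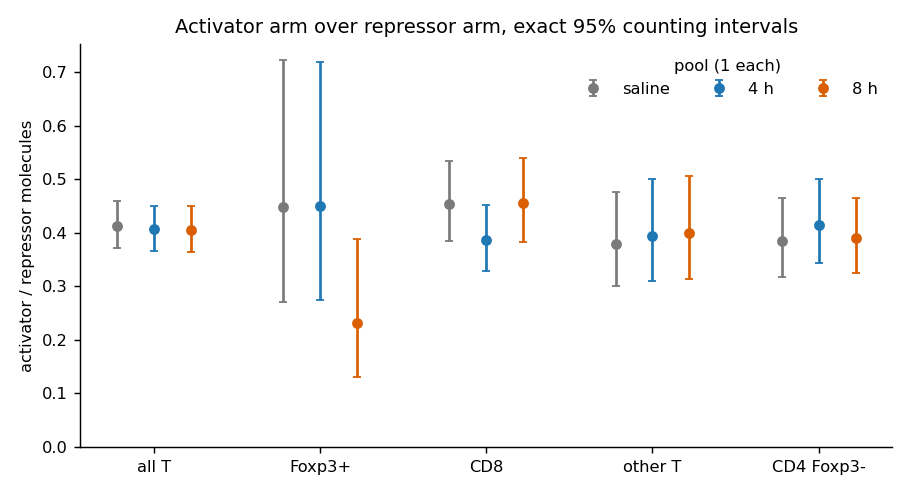
Molecules of Arntl and Clock over those of the 7 repressor genes (vertical axis) in all gated T cells and in Foxp3+, CD8, other T and CD4 Foxp3- cells, for the saline, 4 h and 8 h pools. Bars are exact 95% counting intervals. The all T cell values are 0.414, 0.407 and 0.406, and the 8 h value in Foxp3+ cells, 0.231, is the lowest.

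Between pools, single members passed the fold in a subset in few cases. In CD8 cells, gated by Cd8a or Cd8b1 without Cd4 or Foxp3, Cry1 stood at 22.9 CPM in the saline pool, 29.3 at 4 h and 22.3 at 8 h. Its ratio was 1.28 (1.01 to 1.62) for 4 h over saline and 0.762 (0.601 to 0.963) for 8 h over 4 h. In CD4 Foxp3- cells Cry1 stood at 30.2, 29.6 and 28.9 CPM, and whether the CD8 and CD4 ratios differ was not tested. The repressor arm, which includes Cry1, summed to 94.2 CPM in CD8 cells at 4 h and 82.7 in the saline pool, a ratio of 1.14 (1.01 to 1.29). Not all its genes rose: Per2 stood at 4.19 CPM at 4 h against 5.29 in the saline pool, and Cry2 at 9.89 against 10.8. The other repressor genes stood higher at 4 h. The arm of CD8 cells was not taken without Cry1. For 8 h over 4 h the arm was 78.2 CPM against 94.2, a ratio of 0.830 (0.731 to 0.942). In CD8 cells without Ccl5 the repressor arm had a ratio of 1.20 (1.05 to 1.37) for 4 h over saline and 0.813 (0.709 to 0.932) for 8 h over 4 h. The repressor arm was thus highest at 4 h in both gates, one of which contains the other. In no other gate did the ratio of an arm between pools have an interval that left out 1. These intervals too are not adjusted for the number examined.

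Dbp and Per1 passed the fold in CD4 Foxp3- cells between 8 h and 4 h. Dbp stood at 19.7, 17.6 and 24.1 CPM in the saline, 4 h and 8 h pools, a ratio of 1.37 (1.02 to 1.85) for 8 h over 4 h. Per1 stood at 15.5, 14.9 and 18.9, a ratio of 1.27 (0.911 to 1.77) for 8 h over 4 h. Against saline, 0 of 7 members with at least 100 molecules passed the fold in CD4 Foxp3- cells at 4 h and 0 of 7 at 8 h, beside 8.71% and 8.50% of all genes. For 8 h over 4 h, 2 of 7 members did so, beside 8.91%. In CD8 cells 1 of 7 members did so for 4 h over saline, 0 of 6 for 8 h over saline and 1 of 6 for 8 h over 4 h, beside 7.01%, 7.42% and 7.63%. Cry2 in CD8 cells gave 37 molecules at 8 h and 61 in the saline pool, under the minimum, a ratio of 0.610 (0.394 to 0.933). Over 5 separate subsets and 3 comparisons, 5 of 141 member intervals, or 3.55%, left out 1. At the confidence level used, counting error alone would leave out 1 about as often, so this share is no excess. The intervals given above for Arntl in Foxp3+ cells, Cry1 and Cry2 in CD8 cells and Dbp in CD4 Foxp3- cells are among them. Singly they do not establish a difference between pools. The same share over all genes was not taken.

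The clock genes were next compared between T cell subsets, where the 3 pools serve as samples and the pool is a block. The pools are differently treated and share 1 capture, so the spread is that of these pools. Foxp3+ cells numbered 202, 226 and 232 in the saline, 4 h and 8 h pools, CD8 cells 1936, 2029 and 1908, and CD4 Foxp3- cells 1763, 1718 and 1863. A remainder of 995, 1002 and 1004 T cells, called other T here, held none of the gating molecules or a combination that no gate takes.

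**Figure D4:**
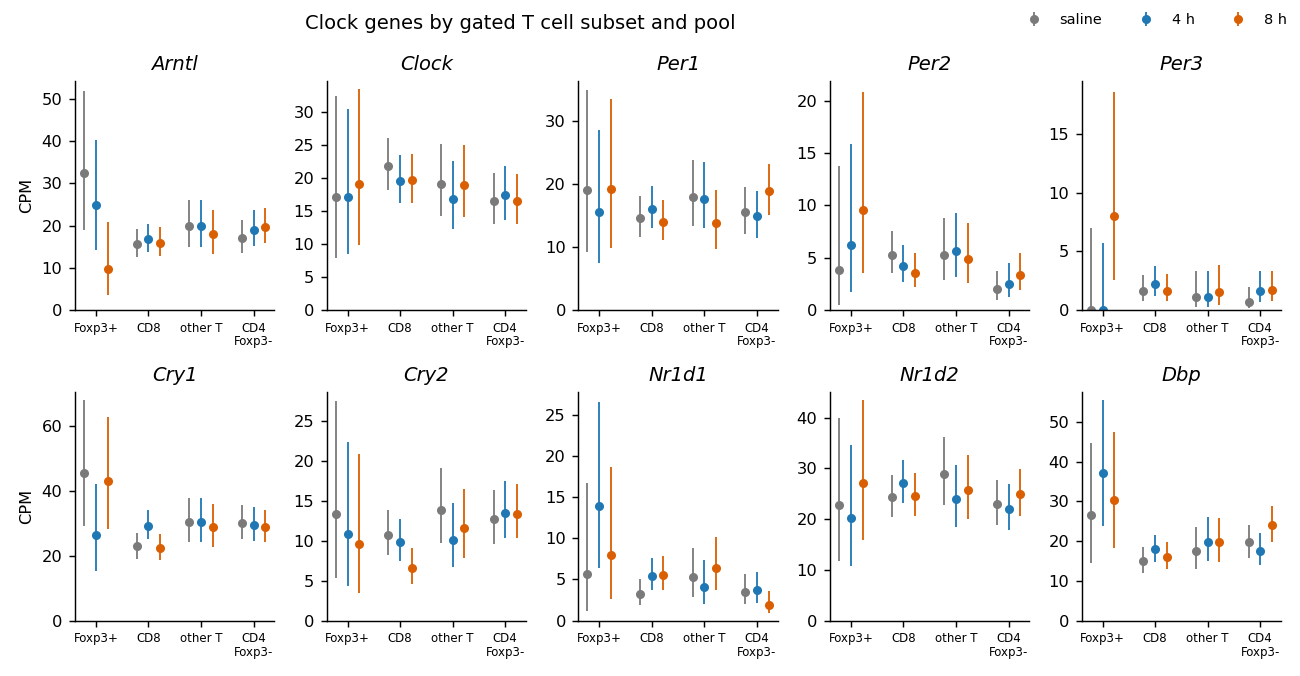
Level in CPM of each clock gene (vertical axis, a separate scale for each gene) in Foxp3+, CD8, other T and CD4 Foxp3- cells of the saline, 4 h and 8 h pools. Bars are exact 95% Poisson intervals. Nr1d1 and Dbp are higher in Foxp3+ than in CD4 Foxp3- cells in each pool, and the bars of Foxp3+ cells are the widest of the 4 subsets.

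In Foxp3+ cells Nr1d1 was higher than in CD4 Foxp3- cells. It stood at 5.72, 14.0 and 7.99 CPM in Foxp3+ cells of the saline, 4 h and 8 h pools, against 3.50, 3.67 and 1.89 in CD4 Foxp3- cells. The groups did not overlap, and the means were 9.23 ± 4.27 and 3.02 ± 0.982 (SD, n = 3 pools). The log2 fold change was 1.57 ± 0.51 (SE), with an adjusted p of 0.0182 by edgeR's quasi-likelihood test. It rests on 17 molecules in Foxp3+ cells and 41 in CD4 Foxp3- cells. Nr1d1 met edgeR's filter on low counts only through Foxp3+ cells, the group where it is high. It was thus open to the test only because of that group. The adjusted p was 0.252 without the 4 h pool, 0.0889 without the 8 h pool, 0.263 by DESeq2 and 0.0616 with no filter on low counts, while the fold change kept its direction in all 8 alternatives.

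Dbp also stood higher in Foxp3+ cells in each pool, at 26.7, 37.3 and 30.4 CPM against 19.7, 17.6 and 24.1 in CD4 Foxp3- cells. Its log2 fold change of 0.58 ± 0.24 (SE) did not pass, with an adjusted p of 0.0885 by edgeR. Cry1 stood at 45.7, 26.4 and 43.1 CPM in Foxp3+ cells against 30.2, 29.6 and 28.9, with the 4 h pool going the other way (adjusted p = 0.380 by edgeR). In all, 1 of 8 tested members passed, beside 18.6% of all genes, and the members' median log2 fold change was 0.12 against −0.01 over all genes. Per2 and Per3 were under the filter, at 12 and 5 molecules in Foxp3+ cells. B cell markers, Ighm among them, summed to 640, 643 and 800 CPM in Foxp3+ cells of the saline, 4 h and 8 h pools, against 256, 283 and 260 in CD4 Foxp3- cells. All 5 markers were detected in both subsets. Memory or effector markers summed to 1111, 1214 and 994 CPM in Foxp3+ cells against 519.5, 688 and 606 in CD4 Foxp3- cells, with 6 of 6 detected in both. The 4 dissociation genes summed to 110.5, 79.2 and 105 CPM in Foxp3+ cells against 58.8, 52.0 and 71.3, with Hspa1a at 0 in both. All 3 sums were higher in Foxp3+ cells in each pool, and their part in these comparisons was not tested. B-gated cells held 0 molecules of Nr1d1, where 3 molecules correspond to 2.87 CPM.

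CD8 cells had more Clock and less Cry2 than CD4 Foxp3- cells. Clock stood at 21.9, 19.6 and 19.7 CPM in CD8 cells of the saline, 4 h and 8 h pools, against 16.6, 17.4 and 16.6 in CD4 Foxp3- cells. Its log2 fold change was 0.34 ± 0.13 (SE), with an adjusted p of 0.0310 by edgeR, and CD8 cells were higher in 3 of 3 pools. Cry2 stood at 10.8, 9.89 and 6.56 CPM in CD8 cells, against 12.7, 13.5 and 13.4, without overlap. Its log2 fold change was −0.48 ± 0.17 (SE), with an adjusted p of 0.0216 by edgeR. Thus 1 member was higher and 1 lower, or 2 of 9 tested, beside 32.6% of all genes.

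Both calls were lost when pools were left out and by another tool. For Clock the adjusted p by edgeR was 0.218 without the saline pool, 0.0688 without the 4 h pool and 0.0927 without the 8 h pool. For Cry2 it was 0.0842 without the 4 h pool and 0.376 without the 8 h pool, where the log2 fold change was −0.27. DESeq2 gave adjusted p of 0.593 for Clock and 0.534 for Cry2. Per2 stood at 5.29, 4.19 and 3.55 CPM in CD8 cells against 1.97, 2.52 and 3.35 in CD4 Foxp3- cells, higher in 3 of 3 pools, with a log2 fold change of 0.79 ± 0.33 (SE) and an adjusted p of 0.0523 by edgeR that was 0.0330 without the 8 h pool. Nr1d1 stood at 3.17, 5.36 and 5.50 in CD8 cells against 3.50, 3.67 and 1.89 in CD4 Foxp3- cells, with an adjusted p of 0.0728 by edgeR that was 0.0283 without the saline pool. Arntl, Per1, Cry1, Nr1d2 and Dbp had log2 fold changes between −0.25 and 0.19 and did not pass, though Dbp did without the 4 h pool (adjusted p = 0.0494 by edgeR).

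**Figure D5:**
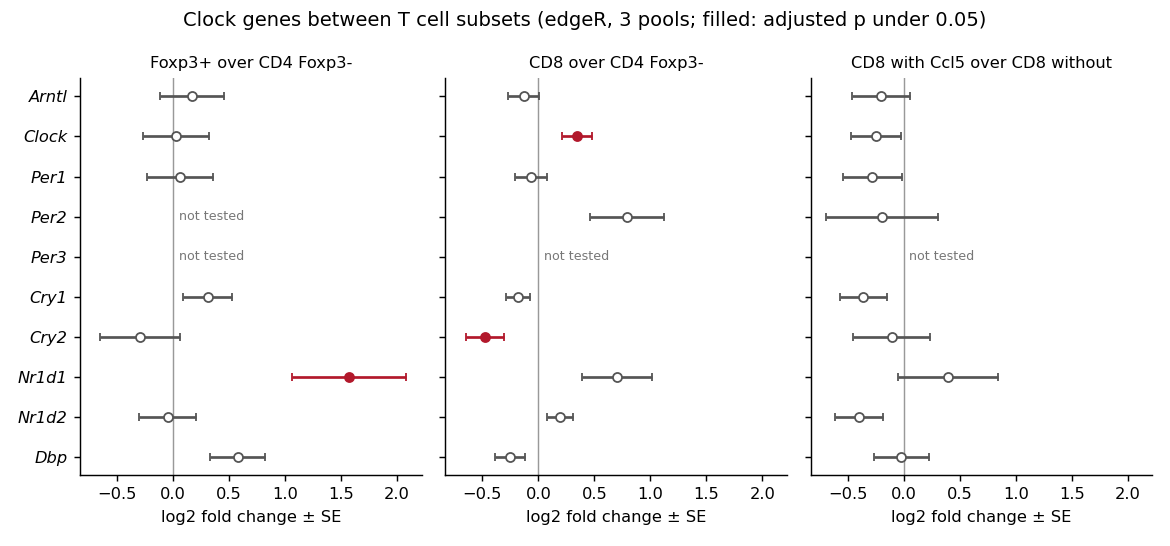
Log2 fold change with its SE (horizontal axis) of each clock gene for Foxp3+ over CD4 Foxp3-, CD8 over CD4 Foxp3- and CD8 with Ccl5 over CD8 without, from edgeR with the 3 pools as a block. Filled red points have an adjusted p under 0.05. Nr1d1 at 1.57 in Foxp3+ cells, and Clock at 0.34 and Cry2 at −0.48 in CD8 cells, are the filled points.

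Among CD8 cells, those with a molecule of Ccl5 were compared with those without. Cells with it were deeper, with medians of 3562, 3436 and 3462 molecules in the saline, 4 h and 8 h pools against 2691, 2699 and 2670. By edgeR 0 of 9 tested members passed, 0 had an unadjusted p under 0.05, and DESeq2 called 0, beside 11.9% of all genes by edgeR. The member log2 fold changes ran from −0.40 for Nr1d2 to 0.39 for Nr1d1, with a median of −0.20 against −0.00 over all genes. Clock, Per1 and Cry1 stood lower in Ccl5+ cells in 3 of 3 pools without passing.

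The corresponding split of CD4 Foxp3- cells by S100a4, a gene of memory CD4 cells, left 136 cells with it and 5208 without. The cells with it were deeper, with medians of 3520, 2852 and 3260 molecules in the saline, 4 h and 8 h pools against 2445, 2383 and 2441. The part of depth in this comparison was not tested. By edgeR 3 of 8 tested members passed, beside 14.7% of all genes. Cry1 stood at 51.3, 83.6 and 56.6 CPM in S100a4+ cells of the saline, 4 h and 8 h pools, against 29.5, 27.1 and 27.8 in the rest, a log2 fold change of 1.12 ± 0.33 (SE; adjusted p = 0.0169 by edgeR). Nr1d1 stood at 22.0, 31.4 and 5.15 CPM in S100a4+ cells, against 2.93, 2.40 and 1.75 in the rest. From 10 and 31 molecules this gave a log2 fold change of 2.88 ± 0.75 (SE; adjusted p = 0.00715 by edgeR). Clock stood at 0, 0 and 5.15 CPM in S100a4+ cells, against 17.1, 18.2 and 17.05 in the rest. This is 1 molecule against 230, a ratio of 0.110 (0.00277 to 0.618), with an adjusted p of 0.0291 by edgeR. Nr1d1 met the filter on low counts only through S100a4+ cells, and Clock only through the rest. Each was thus open to the test only because of the group where it is high. Both kept their call with no filter on low counts. Per2 gave 0 molecules in S100a4+ cells, where 3 molecules correspond to 5.75 CPM, which is above its level in the rest.

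Marker sums differed with this gate too. Memory or effector markers, which include S100a4 itself, summed to 4312, 5364 and 4688 CPM in S100a4+ cells of the saline, 4 h and 8 h pools, against 403, 473 and 432 in the rest. Regulatory T markers summed to 513, 214 and 376 CPM in S100a4+ cells, against 88.6, 104 and 125, with Foxp3 at 0 by the gate in both and Lrrc32 at 0 in S100a4+ cells, as was Il2ra at 8 h. Natural killer T markers summed to 205, 152 and 103 CPM against 33.4, 61.3 and 35.4, with Klrb1c at 0 in S100a4+ cells at 4 h and 8 h. These 3 lists stood higher in S100a4+ cells in each pool. The γδ markers summed to 147, 94.1 and 87.5 CPM against 40.6, 38.8 and 40.7, with Trdc at 0 in S100a4+ cells at 8 h. Myeloid markers summed to 205, 136 and 118 CPM against 72.8, 80.3 and 78.5, with Csf1r at 0 in all 3 S100a4+ pools and Lyz2 at 0 in the saline and 4 h ones. Both were likewise higher in each pool, and the part of these transcripts in the members' values was not tested.

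These calls rest on few cells. Without the 4 h pool 0 of the 3 passed, with adjusted p by edgeR of 0.183 for Clock, 0.264 for Cry1 and 0.225 for Nr1d1. Without the 8 h pool Nr1d1 alone passed, and without the saline pool Clock did not (adjusted p = 0.148 by edgeR). DESeq2 called 1 of the 3, Nr1d1. For Cry1, Nr1d1 and Clock the groups did not overlap between S100a4+ cells and the rest, a share not taken over all genes. In S100a4+ cells of the saline, 4 h and 8 h pools 3 molecules correspond to 22.0, 15.7 and 15.4 CPM. The Nr1d1 value at 8 h and every Clock value in S100a4+ cells lie under these. A wider gate, chosen after the data were seen, took CD4 Foxp3- cells with at least 2 molecules of the memory marker genes, which held 220, 273 and 271 cells in the saline, 4 h and 8 h pools. There 1 of 7 tested members passed, beside 27.9% of all genes. It was Cry2, at 9.26, 4.56 and 9.67 CPM against 13.4, 15.8 and 14.2 in cells with fewer, a log2 fold change of −0.97 ± 0.35 (SE; adjusted p = 0.0253 by edgeR). Its adjusted p was 0.328 without the 4 h pool by edgeR and 0.398 by DESeq2. Nr1d1, Per2 and Per3 were under the filter there and were not tested. Nr1d1 stood at 6.61, 10.3 and 2.42 CPM in that gate against 2.88, 2.01 and 1.78 in cells with fewer, from 16 and 25 molecules, higher in 3 of 3 pools. Cry1 in that gate had a log2 fold change of 0.18 (adjusted p = 0.533 by edgeR), and Clock one of −0.42 (adjusted p = 0.302 by edgeR).

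The members were also ordered by their mean level over 5 subsets. Of all 100 pairs of subsets over the 10 members, 24 had ranges over the 3 pools that did not overlap. The same share over all genes was not computed, so these counts only describe the members. Per2 had 6 pairs without overlap, with Foxp3+, other T and CD8 cells each above CD4 Foxp3- and γδ-gated cells. Arntl had 5, Clock 4, Nr1d1 4, Dbp 3, Per3 1 and Cry2 1, and Per1, Cry1 and Nr1d2 had 0. The Dbp pairs were Foxp3+ cells above other T, CD8 and CD4 Foxp3- cells. Of the 40 pairs that stand next to each other in these orders, 37 had overlapping ranges. The 3 apart were CD4 Foxp3- above CD8 for Arntl, CD8 above other T for Clock and CD8 above CD4 Foxp3- for Per2. Foxp3+ cells had the highest mean for Per2, Per3, Cry1 and Dbp and γδ-gated cells, with a Trdc molecule, for Arntl, Clock, Per1 and Nr1d1. These highest γδ-gated means rest on 8 to 19 molecules. Per2 gave 1 molecule in γδ-gated cells, where 3 molecules correspond to 10.5 to 14.8 CPM over the pools. That is above the Per2 level of every other subset, so its pairs with γδ-gated cells rest on a value under 3 molecules. The Per2 mean of Foxp3+ cells rests on 12 molecules. Cry2 was highest in CD4 Foxp3- cells, at 13.2 ± 0.457 CPM, and lowest in CD8 cells, at 9.07 ± 2.21 (SD, n = 3 pools each).

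Genes whose pattern over subsets and pools was most like that of Cry1, Nr1d2 and Dbp, the members with the most molecules, were sought among 5929 genes over 18 points. For Cry1 these were Rab11fip1, Ubl3 and Dpysl2, with Pearson r of 0.944, 0.918 and 0.913. For Nr1d2 they were Nsd3, Slc4a2 and Srsf5, at 0.897, 0.872 and 0.863, and for Dbp Nbn, Txlng and Nudcd3, at 0.945, 0.929 and 0.922. The points share a capture and the depth of each subset, and the S100a4+ points rest on 32 to 57 cells each, so these values are a description.

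Some accessory genes of the clock, from lists chosen with earlier results of these data known, passed the fold between pools. Of 12 other clock genes, 5 had at least 100 molecules for 4 h over saline and 6 for 8 h over saline, and 2 were higher in each, with median log2 ratios of 0.22 and 0.11. Beside them, 5.95% and 5.40% of all genes passed the fold in these comparisons. Rora, the ROR activator of Arntl, stood at 26.8 CPM in the saline pool, 35.9 at 4 h and 35.9 at 8 h. Its ratio to saline was 1.34 (1.17 to 1.54) for the 4 h pool and 1.34 (1.17 to 1.54) for the 8 h pool. Bhlhe40, which encodes the E-box repressor DEC1, stood at 3.74, 6.46 and 6.61 CPM, with ratios of 1.73 (1.21 to 2.49) and 1.77 (1.24 to 2.54). These genes were higher in both remimazolam pools. Among those under the minimum, Nfil3, the D-box repressor gene, gave 32 molecules at 4 h against 53 in the saline pool, a ratio of 0.592 (0.369 to 0.935). Ciart, which encodes a repressor of CLOCK and BMAL1, gave 39 molecules at 4 h against 19 in the saline pool, a ratio of 2.01 (1.14 to 3.69). Their intervals left out 1, one below it and one above.

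Rora and Bhlhe40 are also high in memory cells. In CD4 Foxp3- cells with at least 2 memory marker molecules Rora averaged 126 ± 14.0 CPM against 14.8 ± 1.91 in those with fewer, and Bhlhe40 34.1 ± 4.22 against 1.14 ± 0.551 (SD, n = 3 pools each). The 6 memory or effector markers summed to 804 CPM at 4 h and 734 at 8 h, against 649 in the saline pool. With the same mix of gated subsets in every pool the ratios to saline were 1.29 at 4 h and 1.29 at 8 h for Rora, and 1.61 and 1.60 for Bhlhe40. The part of memory cells within the subsets in these ratios was not tested.

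Of the 8 clock protein kinases and ubiquitin ligases, which set the stability of PER and CRY, 7 had enough molecules and 0 passed the fold against saline at 4 h or 8 h. Their ratios included 1.06 and 1.05 for Csnk1d, and their median log2 ratios were 0.08 and 0.06. Of the 9 clock output genes, 8 had enough molecules, and 2 were higher and 1 lower at 4 h, and 1 higher and 1 lower at 8 h. Klf10, a Krüppel-like factor gene, stood at 9.08, 12.2 and 12.1 CPM in the saline, 4 h and 8 h pools, with ratios to saline of 1.34 (1.06 to 1.71) and 1.34 (1.05 to 1.70). Within the fold, but with an interval that left out 1, were Nampt, the gene of an NAD salvage enzyme, at 4 h with a ratio of 1.16 (1.02 to 1.32), Por at 8 h with 0.860 (0.746 to 0.991) and, of the kinases, Gsk3b at 8 h with 0.928 (0.883 to 0.976).

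Usp2, which encodes a ubiquitin protease, stood at 5.35, 7.25 and 6.40 CPM, with ratios of 1.36 (0.994 to 1.86) for the 4 h pool and 1.20 (0.868 to 1.65) for the 8 h pool. Klf9, a glucocorticoid-responsive gene, gave 71, 40 and 53 molecules in the saline, 4 h and 8 h pools. Its ratio to saline was 0.552 (0.365 to 0.825) for the 4 h pool and 0.732 (0.503 to 1.06) for the 8 h pool, so it stood lower in both remimazolam pools while Klf10 stood higher.

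Accessory genes also differed between subsets. In Foxp3+ cells, 3 of 6 tested other clock genes were higher than in CD4 Foxp3- cells by edgeR, Rora with a log2 fold change of 1.40 (adjusted p = 1.17e-11), Nfil3 with 1.74 (adjusted p = 0.00563) and Bhlhe40 with 1.42 (adjusted p = 0.00138). Of the kinases and ligases 1 of 7 fell, Csnk1e at −0.85 (adjusted p = 0.00465 by edgeR), and of the output genes 1 of 7 rose, Nampt at 0.51 (adjusted p = 0.0464 by edgeR). Of all genes, 18.6% passed in this comparison. In CD8 cells Cipc, the gene of a CLOCK inhibitor, was higher than in CD4 Foxp3- cells at 0.76 (adjusted p = 1.27e-11 by edgeR). Rora at −0.91, Bhlhe40 at −2.28 and Csnk1e at −0.48 were lower (adjusted p = 2.05e-14, 1.74e-10 and 7.27e-06 by edgeR). This is 3 of 7 tested other clock genes, 1 of 7 kinases and ligases and 0 of 8 output genes, beside 32.6% of all genes. In Ccl5+ CD8 cells Cipc and Klf10 were higher, at 0.89 and 1.00, and Pim3 lower, at −0.99 (adjusted p = 4.49e-05, 0.0204 and 0.0286 by edgeR). They are 1 of 4 tested other clock genes and 2 of 8 output genes, with 0 of 7 kinases and ligases, beside 11.9% of all genes.

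In S100a4+ CD4 cells Rora, Bhlhe40, Hlf, Wee1 and Klf10 were higher by edgeR, with log2 fold changes of 2.94, 2.71, 4.46, 2.44 and 1.81. They are 3 of 7 tested other clock genes and 2 of 7 output genes, with 0 of 7 kinases and ligases, beside 14.7% of all genes. In all T cells of the saline, 4 h and 8 h pools Hlf gave only 15, 20 and 25 molecules and Wee1 60, 57 and 53. Their fold changes in S100a4+ cells thus rest on few molecules. Subset calls of accessory genes, here and above, were not examined with a pool left out or by DESeq2. Hlf encodes a D-box activator related to DBP, and Wee1 a cell cycle kinase with a clock-driven promoter. Under the wider memory gate 4 of 7 tested other clock genes were higher and 1 lower, and of 7 tested output genes 4 were higher and 2 lower, beside 27.9% of all genes. Of the kinases and ligases 0 of 7 were higher and 2 lower, Csnk1e at −0.67 (adjusted p = 0.00352 by edgeR) among them. Among those not yet named were Timeless at −0.68, Usp2 at −1.36, Por at −0.73 and Coq10b at 0.74 on the log2 scale, all with an adjusted p under 0.05 by edgeR.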

How the data were processed

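The study measured transcripts of single spleen T cells in 1 capture of 3 tagged pools. Reads were processed by the authors with the BD WTA Multiplex Rhapsody Analysis Pipeline 1.9.1, on GRCm38 and GENCODE M19, per the file headers. The deposited expression table holds counts of molecules (unique molecular identifiers) per cell and gene after the authors' error correction, and raw counts of molecules beside them. The deposited sample tag tables name the tag of each cell and its tag reads, as other values. Of 17299 putative cells, 1125 called multiplets, undetermined or of another tag were left out. This removes those doublets between pools that the tag calls caught, and doublets within a pool were not called. Kept cells had at least 200 genes and under 25% mitochondrial molecules. T cells had at least 1 molecule of Cd3d, Cd3e or Cd3g and fewer than 2 of B cell and myeloid genes. No clock gene entered a gate.

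Molecules were summed per pool and subset and scaled to 1000000 molecules (CPM). Pools were compared by ratios only, with exact intervals, and members with at least 100 molecules were counted when 25% higher or 20% lower. Subsets were compared with edgeR 4.0.16 in R 4.3.3 (filterByExpr, pool as a block, Benjamini-Hochberg over all genes tested). This filter asks for enough molecules in as many samples as 1 group holds, so a gene can enter through 1 group alone. The SE from edgeR is the size of the log2 fold change over the square root of the F statistic. Alternatives were other normalization, cell filters and gates, raw molecules, equal cell weights, a fixed mix of subsets, other folds and minimums, DESeq2 1.42.0 and leaving out pools. Both procedures were tested on simulated counts. Other steps used matplotlib 3.10.9, scipy 1.17.1, pandas 2.3.3 and numpy 2.4.6 under Python 3.11.15. Named genes are all members, list genes past the fold with at least 100 molecules or with an adjusted p under 0.05, and the 3 genes most alike each of the 3 members with most molecules. Members and lists were chosen with earlier results of these data known. The genome build of the sequence table matches that of the file headers.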

Additional observations from a re-analysis of the deposited data

Results flagged for a closer look

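B-gated cells, which the comparisons leave out, also held clock transcripts above the limit that a count of 0 allows. In the 390 cells with B cell genes, Nr1d2 stood at 26.8 CPM, against 24.7 in all T cells, Arntl at 23.9 against 18.0, Per1 at 22.0 against 16.0, Clock at 18.2 against 18.8 and Per2 at 7.66 against 4.00. Lower than in T cells were Cry1 at 11.5 against 28.0, Dbp at 10.5 against 19.0 and Cry2 at 6.70 against 11.1. These 8 levels rest on 7 to 28 molecules per gene, and the difference between the cell types was not tested. The exact 95% intervals in B-gated cells lay below the T cell level for Cry1, at 5.94 to 20.1 CPM, and for Dbp, at 5.26 to 18.8. Nr1d1 gave 0 molecules there, with an interval up to 3.53 CPM, against 4.56 in T cells, and Per3 gave 2 molecules, at 1.91 (0.232 to 6.92) against 1.57.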

How the results depend on the processing

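All 270 member ratios between pools under the alternatives stayed inside their counting intervals, as did 135 of 135 ratios of the accessory genes past the fold. The count of members past the fold for 4 h over saline was 0, but 1 with raw molecules, with tag purity of at least 90%, with every cell weighted equally, without the cell with most molecules, at a fold of 1.1 and with no minimum. For 8 h over saline it was 0, but 3 at a fold of 1.1 and 1 with no minimum, and for 8 h over 4 h 0, but 1 with every cell weighted equally and 2 at a fold of 1.1. The quotient of the arms stayed inside its interval in 30 of 30 values; 1 further setting, a wider activator arm, is not reported here and not among these values. Members called by edgeR between subsets ranged, when 1 pool was left out, from 0 to 1 in Foxp3+ cells, 1 to 2 in CD8 cells, 0 to 0 in Ccl5+ CD8 cells, 0 to 2 in S100a4+ CD4 cells and 0 to 2 under the wider memory gate. The 2 there, without the 8 h pool, were Cry2 and Nr1d1 (log2 1.69, adjusted p = 0.0289), which with all pools was under the filter and is not among the 321 below. DESeq2 called 0, 0, 0, 1 and 0, and without a filter on low counts Foxp3+ cells had 0. The fit with no replicate block called 1, 2, 0, 3 and 1, as the blocked fit did. Of 321 member fold changes between subsets under alternatives, 21 lost and 3 gained a call and 0 reversed. The causes were not tested. Shares of cells without thinning were higher than thinned ones, by construction. Per2, Per3 and Nr1d1, with the fewest molecules, limit what this depth can show.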
